A study of Homo sapiens with 8 samples.

Results

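Interferon-stimulated and double-stranded RNA response genes are described here in human osteosarcoma cells that received a synthetic microRNA. The set was chosen by symbol, from a list of 43 genes. It comprises sensors of cytosolic double-stranded RNA, the transcription factors that act downstream of them, and the antiviral effectors they induce. The count table held 41 of the 43 symbols among its 15982 genes, and all 41 passed the filter on low counts. The other listed genes, IFI27 and IRF7, were not analysed here.

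The cells were 143BTK-, a thymidine kinase deficient line derived from a human osteosarcoma. Of the 8 libraries, 4 came from cells transfected with a mimic of hsa-miR-101-3p and 4 from cells transfected with a negative control mimic, called miR-101 and control below. The labels describe 4 independent transfection experiments and number the libraries of each group 1 to 4. All cultures grew without glucose in 10 mM galactose and 5% dialysed serum. They received 80 pmol of mimic in a lipid reagent first at plating and a second time at 48 h. The second mix was removed at 96 h, and the cells were harvested at 120 h. A mimic is itself a short double-stranded RNA, and both groups received one. With no untransfected group, the values compare 1 transfected RNA with another and do not give the level without transfection.

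Cells recognise double-stranded RNA in the cytosol through RIG-I (encoded by DDX58) and MDA5 (encoded by IFIH1), which signal through the mitochondrial adaptor MAVS to the transcription factor IRF3. Secreted type I interferon then acts through its receptor and the kinases JAK1 and TYK2 on a complex that contains STAT2 and IRF9 and binds a promoter element called the ISRE. The induced genes block viral RNA translation, degrade RNA or tag proteins with ISG15, and several of them are also switched on by IRF3 directly.

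The ISRE core, written as the word GAAANNGAAA or its reverse complement TTTCNNTTTC, was searched on both strands of RefSeq promoters (GRCh38.p14, 250 bases before and 50 bases after each gene start). It was present in 18 of the 34 members with a promoter sequence (52.9%), against 3.57% of all 35116 promoters. The word TTCNNNGAA, the core of the gamma-activated sequence of interferon gamma targets, was present in 7 of the 34 (20.6%), against 7.66% of all promoters. Its 9 letters can overlap those of the ISRE word. OAS1 and RSAD2, both called in at least 1 of the fits below, held no ISRE word, and RSAD2 differed widely among controls. The following 30-base windows come from some of the members that carry the ISRE word. These members had large differences between libraries or passed the test in at least 1 of the fits below. Each reads 5′ to 3′ on the gene's strand, with the matched word in capitals.
IFIT1: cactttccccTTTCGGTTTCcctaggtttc
IFIT3: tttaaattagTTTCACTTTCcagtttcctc
ISG15: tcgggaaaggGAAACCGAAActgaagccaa
BST2: tcctttctggGAAACTGAAActgaaaacct
CXCL10: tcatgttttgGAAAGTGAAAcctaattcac
MX1: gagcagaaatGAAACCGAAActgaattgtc
PARP14: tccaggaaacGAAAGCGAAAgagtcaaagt
EIF2AK2: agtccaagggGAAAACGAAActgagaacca
The capitals lie at chr10:89392520-89392529 in IFIT1, chr10:89327875-89327884 in IFIT3, chr1:1013390-1013399 in ISG15 and chr19:17405751-17405760 in BST2. In CXCL10 they lie at chr4:76023709-76023718, in MX1 at chr21:41420569-41420578, in PARP14 at chr3:122680810-122680819 and in EIF2AK2 at chr2:37156977-37156986. BST2, CXCL10 and EIF2AK2 are on the minus strand and the others on the plus strand. The word in MX1 lies 11 bases after the start and the others lie 6 to 221 bases before it. A match describes the letters in this window and was not tested as a binding site.

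Read counts per library summed to between 17603054 and 20160267. Levels are given as CPM, that is, counts divided by the library size after TMM adjustment. EZH2, a known miR-101 target used as a check on the mimic, had 28.1 ± 2.09 CPM (SD, n = 4) with miR-101 and 45.7 ± 5.12 CPM (SD, n = 4) in controls (log2 fold change -0.70, edgeR adjusted p = 0.00561). Of the markers of the line, 7 of 8 mesenchymal genes were in the table, with summed levels of 1585 to 2639 CPM with miR-101 and 1726 to 2127 CPM in controls and RUNX2 called higher (COL1A1 and SPARC also with the culture number as a block). Of 7 leukocyte markers 2 were in the table, summing to 1.88 to 2.15 CPM and 1.77 to 4.44 CPM. Of these, LYZ was called lower with the block, though not by edgeR with the group as the only term. Endothelial markers (2 of 4) summed to 2.98 to 6.33 CPM and 3.11 to 10.4 CPM. Epithelial markers (3 of 5) summed to 359.6 to 625.1 CPM and 288.5 to 375.1 CPM, with KRT8 called higher (EPCAM also with the block). The part of these markers in the results below was not tested.

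In the fit over all 8 libraries most members had a small positive log2 fold change with miR-101, and no member passed the test. With edgeR's quasi-likelihood test and Benjamini-Hochberg adjustment over 15905 genes, a gene was called at an adjusted p under 0.05. None of the 41 members was called higher with miR-101 (0 of 41, against 3.3% of all tested genes) and none was called lower (0 of 41, against 3.32%). At an unadjusted p under 0.05, edgeR gave 3 higher members (EIF2AK2, TRIM21, CXCL10) and 1 lower member (ADAR), against 22.3% of all tested genes in either direction. DESeq2 also called 0 members (against 10.7% of all genes), with 2 higher and 2 lower unadjusted (against 22.2%). Likewise limma-voom called 0 (against 6.66%), with 5 higher and 1 lower unadjusted (against 22.2%). The log2 fold change of miR-101 over control was positive in 31 members and negative in 10, with a median of 0.25. Over all 15905 tested genes it was positive in 7837, with a median of -0.01. Without control 4 it was positive in 24 members and negative in 17, and the members' median was 0.05. Without control 3 it was positive in 29 and negative in 12, and the median was 0.10.

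With the culture number as a block, 3 members were called higher and 0 lower (5.55% and 4.99% of all tested genes were called in those directions). PARP14, a mono-ADP-ribosyltransferase, had a blocked log2 fold change of 0.52 ± 0.127 (SE, edgeR adjusted p = 0.0364). MX1, a dynamin-like GTPase that traps viral nucleoproteins, had 0.88 ± 0.223 (SE, edgeR adjusted p = 0.0429). OAS1, which makes the 2′-5′ oligoadenylates that activate RNase L, had 0.68 ± 0.178 (SE, edgeR adjusted p = 0.0482). The blocked median of the 41 was 0.30.

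**Figure D1:**
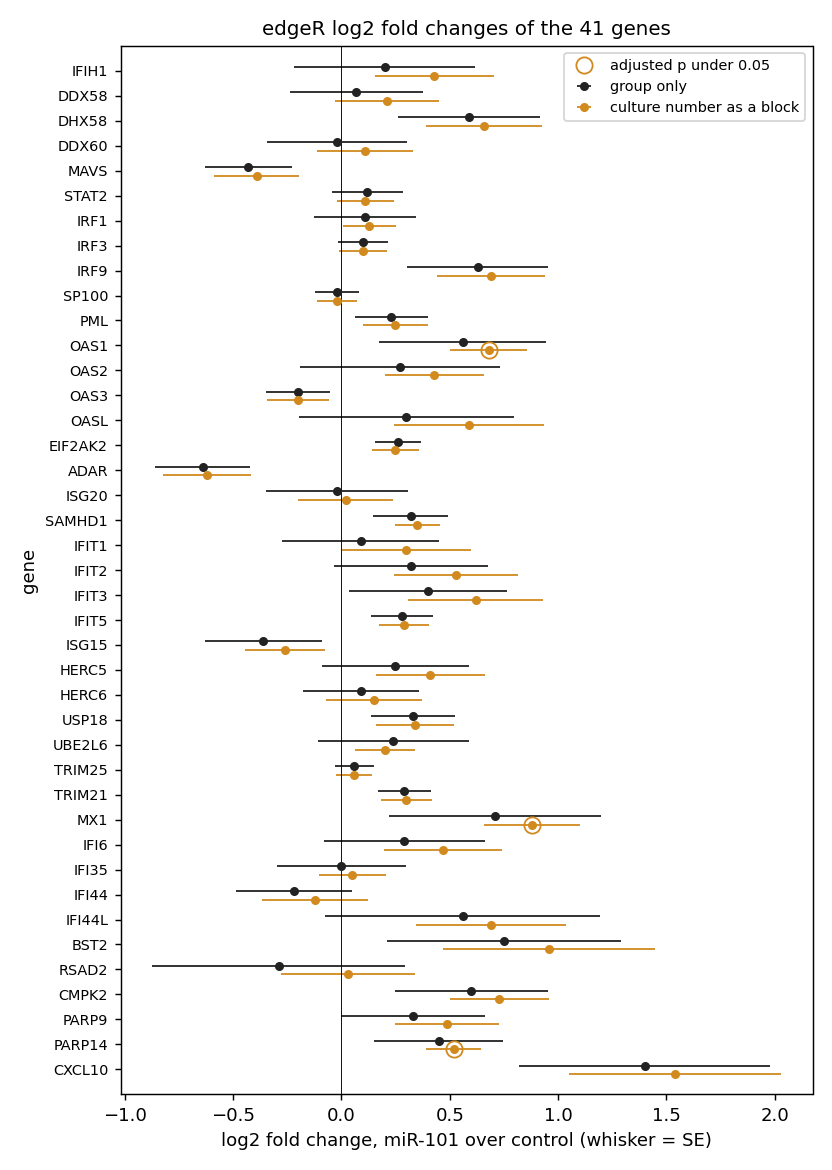
edgeR log2 fold changes of miR-101 over control for each of the 41 genes (x axis), with the group as the only term (black) and with the culture number as a block (orange). Whiskers are standard errors, and open circles mark the 3 genes at an adjusted p under 0.05, all in the blocked fit: PARP14, MX1 and OAS1.

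The members differed more among the control libraries than between the groups. Their summed level was 2961, 2827, 1750 and 1232 CPM in controls 1 to 4, and 2576, 2679, 2492 and 2120 CPM in miR-101 libraries 1 to 4. Controls 1 and 2 thus held the highest sums of the 8 libraries and controls 3 and 4 the lowest. In bulk RNA, fewer responding cells and less RNA per cell cannot be told apart.

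Control 4 was the lowest of the 8 libraries for 31 of the 41 members (75.6%), against 22.2% of all tested genes. Controls 1 and 2 both lay above controls 3 and 4 in 36 members (87.8%), against 19.7% of all genes. The ratio of the highest to the lowest control had a median of 2.95 over the members, from 1.09 in TRIM25 to 39.1 in CXCL10, beside a median of 1.5 over all genes. Among the miR-101 libraries the same ratio had a median of 1.43 over the members and 1.34 over all genes. It exceeded 2 in 28 members among controls (68.3%, against 20% of all genes) and in 8 members among miR-101 libraries (19.5%, against 10.8%).

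**Figure D2:**
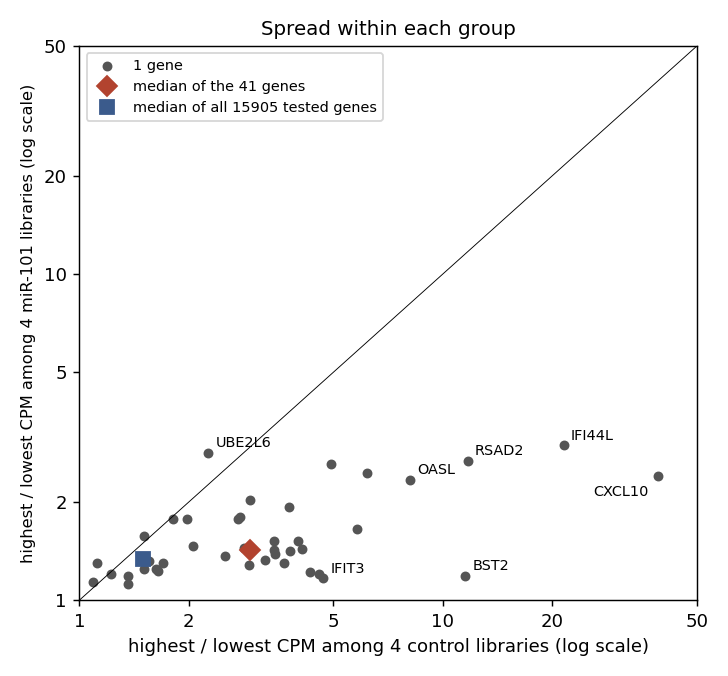
Each point is 1 of the 41 genes, with the ratio of the highest to the lowest CPM among the 4 control libraries (x axis) and among the 4 miR-101 libraries (y axis), both on log scales. Most genes lie below the line of equal spread, with the members' median (diamond) at 2.95 and 1.43 and the median of all tested genes (square) at 1.5 and 1.34.

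Set against each control of the same number, the members were divided in cultures 1 and 2 and mostly higher with miR-101 in cultures 3 and 4. The level was higher with miR-101 for 19 of 41 members in culture 1 and for 21 in culture 2, then for 38 in culture 3 and for 34 in culture 4. The median log2 ratio of the 41 was -0.0714, 0.0657, 0.51 and 0.845 in cultures 1 to 4, while that of all tested genes lay between 0.002 and 0.00834. At least a 2-fold higher level was reached by 1, 0, 5 and 19 members in the 4 cultures. These were 2.44%, 0.0%, 12.2% and 46.3% of the members, against 3.75%, 3.39%, 4.03% and 7.18% of all tested genes. At least a 2-fold lower level was reached by 0, 0, 0 and 2 members, the last being ADAR and MAVS. Those 2 were 4.88% of the members, against 5.68% of all tested genes in culture 4.

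In 15 members (36.6%, against 2.46% of all genes) the level was lower with miR-101 in both of cultures 1 and 2 and higher in both of cultures 3 and 4. The sign was positive in all 4 cultures for 12 members (29.3%, against 18.1% of all genes) and negative in all 4 for ADAR alone (2.44%, against 16.5%). The difference in response between cultures 1 and 2 and cultures 3 and 4 was not tested. What distinguished the cultures is not given in the labels.

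**Figure D3:**
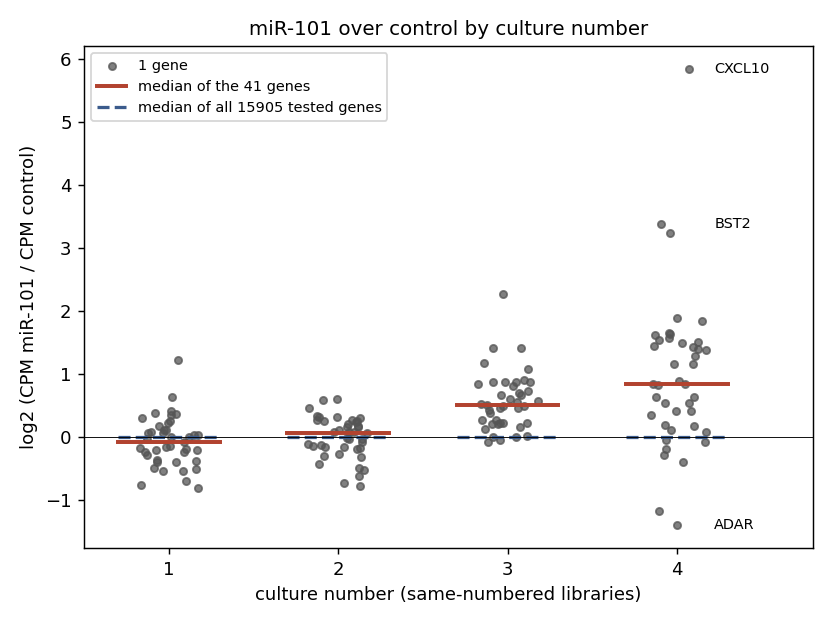
Log2 ratio of CPM in the miR-101 library to CPM in the control library of the same number (y axis) for each of the 41 genes (points) in cultures 1 to 4 (x axis). Red lines mark the members' medians of -0.0714, 0.0657, 0.51 and 0.845, and dashed blue lines those of all tested genes.

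Fits restricted to 2 cultures gave the members opposite calls or none. With replicates 1 and 2 alone, edgeR called 6 members higher (CXCL10, MX1, PARP14, IFIT5, OAS1, EIF2AK2) and 13 lower (ISG15, IFI44, ADAR, RSAD2, IFIT1, DDX60, DDX58, MAVS, OASL, OAS3, HERC6, IFIT2, ISG20), where 16.0% and 16.4% of all tested genes were called. With replicates 3 and 4 alone, edgeR called 0 members and 0.0379% of all genes. At an unadjusted p under 0.05 that fit gave 13 higher members and 1 lower of 41, against 693 higher and 565 lower of all 15833 tested genes. Its median over the members was 0.64, with 38 of 41 positive (against 7632 of 15833 tested genes). Its controls are the 2 described above as low for most members, so these values restate that pattern and are not separate evidence. The members share the same libraries and are not independent observations. Replicates 1 and 2 alone gave a median of -0.03. Replicates 1 and 2 of a group lay close to each other (chi-square per degree of freedom 3.82 for miR-101 and 4.73 for control, against 14.5 to 70.9 for the other pairs of a group). The fit on replicates 1 and 2 rests on that smaller spread. Its p-values do not cover the spread among all 4 cultures.

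**Figure D4:**
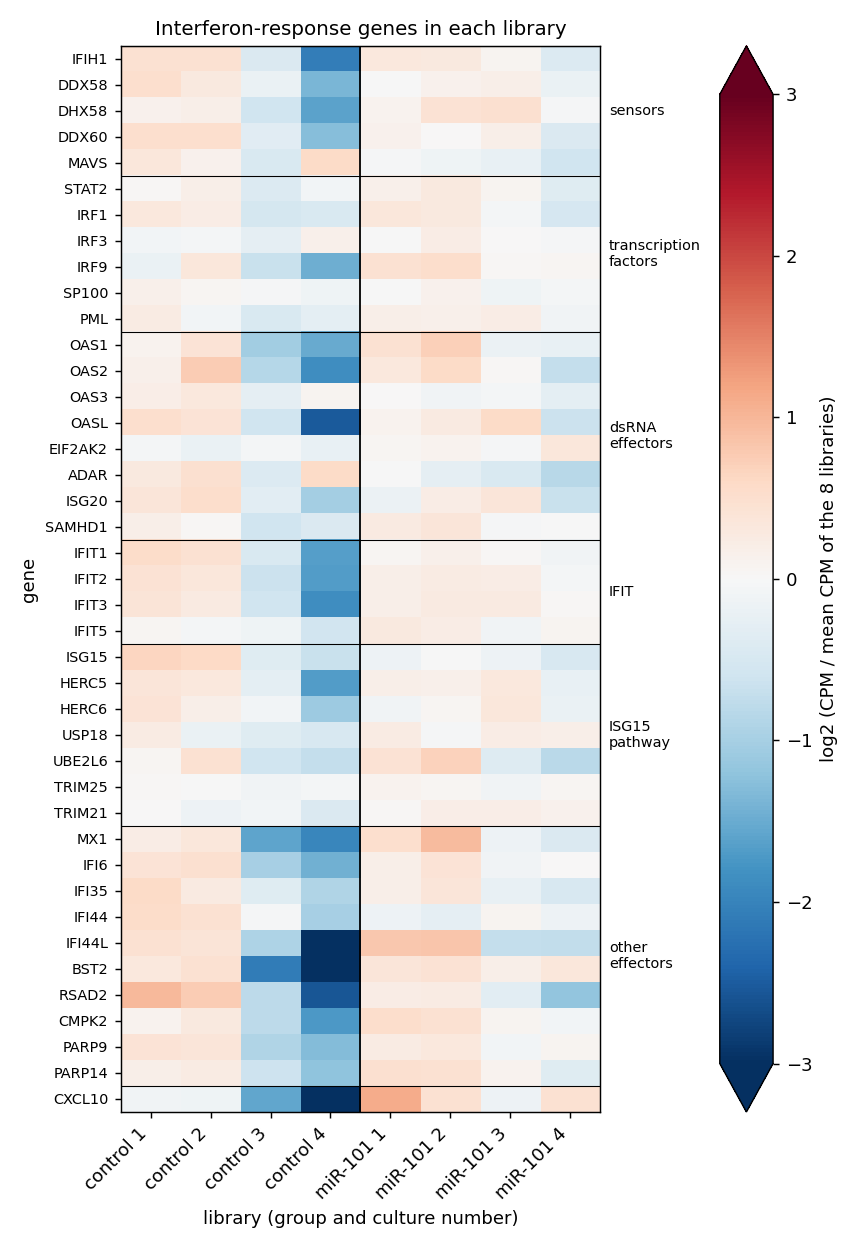
Log2 ratio of each library's CPM to the gene's mean CPM over the 8 libraries (colour, with values past 3 clipped), for the 41 genes ordered by role (rows) in the 8 libraries (columns). Control 4 is the lowest library for 31 of the 41 genes, and ADAR and MAVS are among the exceptions.

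Among the RNA sensors, IFIH1, which encodes MDA5, the sensor of long double-stranded RNA, had 75.1, 74.3, 64.1 and 45.4 CPM in miR-101 libraries 1 to 4 and 82.5, 83.7, 45.2 and 14.4 CPM in controls 1 to 4. The groups overlapped, with controls 1 and 2 highest and control 4 lowest. The log2 fold change was 0.20 ± 0.419 (SE, edgeR adjusted p = 0.83).

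DDX58, which encodes RIG-I, the sensor of RNA ends bearing a triphosphate, had 142.7, 156.3, 162.1 and 124.7 CPM with miR-101 and 203.1, 174.9, 124.1 and 55.7 CPM in controls. The control values spanned all of the miR-101 values. Its log2 fold change was 0.07 ± 0.305 (SE, edgeR adjusted p = 0.921). DHX58 encodes LGP2, a related helicase that regulates both sensors. It had 3.43, 4.3, 4.5 and 3.14 CPM with miR-101 and 3.52, 3.6, 2.11 and 1.05 CPM in controls, so that only controls 3 and 4 lay below the miR-101 libraries (log2 fold change 0.59 ± 0.327 SE, edgeR adjusted p = 0.325). The helicase gene DDX60 was lower with miR-101 in cultures 1 and 2 and higher in cultures 3 and 4, like IFIH1 and DDX58.

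MAVS, the adaptor on the mitochondrial outer membrane, differed from the sensors. It had 52.5, 49.0, 46.1 and 35.8 CPM with miR-101 and 67.5, 59.2, 39.3 and 80.5 CPM in controls. Here control 4 was the highest library and control 3 the only control below most miR-101 libraries. The log2 fold change was -0.43 ± 0.20 (SE, edgeR adjusted p = 0.238). Without control 3 it was -0.60 (edgeR adjusted p = 0.0418), and MAVS and ADAR were then the 2 members called lower (4.0% of all tested genes were).

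Among the transcription factors, IRF3 and STAT2 differed little between libraries and IRF9 differed more. IRF3, which is activated by phosphorylation and not mainly by its own induction, had 36.2, 42.3, 36.5 and 35.6 CPM with miR-101 and 34.6, 35.1, 30.0 and 40.7 CPM in controls. The groups overlapped within a range of 1.36-fold among controls (log2 fold change 0.10 ± 0.117 SE, edgeR adjusted p = 0.664). STAT2, a subunit of the ISRE-binding complex, had 37.7, 41.4, 36.2 and 26.3 CPM with miR-101 and 34.8, 38.4, 25.4 and 32.0 CPM in controls. No order by group was visible (log2 fold change 0.12 ± 0.164 SE, edgeR adjusted p = 0.724).

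IRF1, which is induced by interferon gamma, had 27.8, 27.2, 21.3 and 15.7 CPM with miR-101 and 27.7, 25.7, 15.3 and 16.2 CPM in controls. In both groups libraries 1 and 2 were the higher ones, and the groups overlapped (log2 fold change 0.11 ± 0.235 SE, edgeR adjusted p = 0.823). IRF9, the DNA-binding subunit of the complex with STAT2, was present at 2.15, 2.25, 1.62 and 1.63 CPM with miR-101 and 1.37, 1.99, 0.993 and 0.574 CPM in controls. It was higher with miR-101 in all 4 cultures, yet control 2 exceeded miR-101 libraries 3 and 4 (log2 fold change 0.63 ± 0.326 SE, edgeR adjusted p = 0.285). SP100 and PML, the scaffold proteins of PML nuclear bodies, had log2 fold changes of -0.02 ± 0.102 (SE) and 0.23 ± 0.169 (SE), neither called.

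The effector enzymes, most of which act on RNA, differed among themselves. EIF2AK2 encodes PKR, the kinase that stops translation through eIF2α when it binds double-stranded RNA. It had 160.5, 166.3, 149.7 and 194.5 CPM with miR-101 and 147.4, 133.8, 148.6 and 132.5 CPM in controls. Every miR-101 library lay above every control, although miR-101 3 exceeded control 3 by little. EIF2AK2 was 1 of 2 members whose groups did not overlap, both higher with miR-101 (4.88% of the members, against 7.76% of all tested genes, while 0 members and 7.34% of genes lay wholly lower), and its log2 fold change was 0.26 ± 0.106 (SE, edgeR adjusted p = 0.186). The other was TRIM21, a cytosolic antibody receptor and ubiquitin ligase, with 22.3 to 24.8 CPM with miR-101 and 16.1 to 21.9 CPM in controls (log2 fold change 0.29 ± 0.122 SE, edgeR adjusted p = 0.189).

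ADAR encodes the adenosine deaminase that edits double-stranded RNA and so limits MDA5 activation by the cell's own RNA. It had 51.2, 42.3, 37.6 and 29 CPM with miR-101 and 62.7, 71.9, 38.7 and 76.6 CPM in controls. Each miR-101 library lay below the control of its number, by 0.29, 0.77, 0.04 and 1.40 on the log2 scale, but control 3 lay within the miR-101 range. ADAR had a log2 fold change of -0.64 ± 0.22 (SE, edgeR adjusted p = 0.112), the lowest of the 41. Without control 3 it was -0.82 (edgeR adjusted p = 0.0224), and leaving out any other library left it uncalled.

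OAS1 had 20, 24.1, 12.9 and 12.5 CPM with miR-101 and 15.7, 19.3, 7.14 and 5.11 CPM in controls. It was higher with miR-101 in all 4 cultures, while libraries 1 and 2 stood above 3 and 4 in both groups. The unblocked log2 fold change was 0.56 ± 0.384 (SE, edgeR adjusted p = 0.427). OAS3, a larger synthetase of the same family, had 14.9, 13.7, 14.2 and 12 CPM with miR-101 and 16.9, 18.4, 12.2 and 15.7 CPM in controls (log2 fold change -0.20 ± 0.148 SE, edgeR adjusted p = 0.45). Control 3 was again the only control inside the miR-101 range of OAS3. Of the remaining members of this group, OAS2, OASL, SAMHD1, which hydrolyses deoxynucleotides, and the exonuclease gene ISG20 had log2 fold changes between -0.02 and 0.32 and none was called. OASL, an inactive relative that enhances RIG-I signalling, spanned 15.6 to 126.8 CPM among controls and 56.5 to 132.2 CPM with miR-101.

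**Figure D5:**
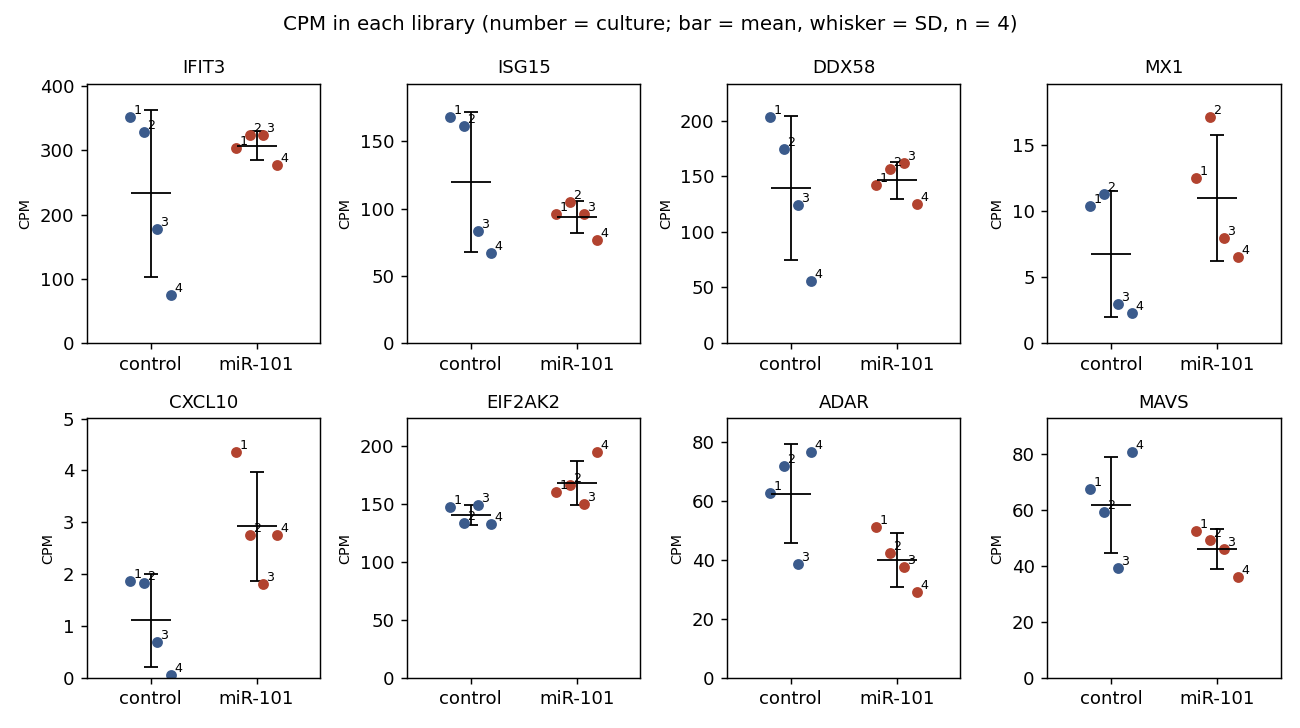
CPM (y axis) in each control and miR-101 library for 8 genes, with the culture number beside each point, the bar at the mean and the whisker at the SD (n = 4). IFIT3, ISG15 and DDX58 spread widely among controls, EIF2AK2 does not overlap between groups, and ADAR and MAVS have their highest value in control 4.

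The IFIT family includes proteins that bind viral RNA ends and block translation of that RNA. IFIT3 had the second highest level per kilobase of the 41 in controls, at 88.3 ± 49.5 CPM per kilobase (SD, n = 4), after ISG15 at 127 ± 55.6. The SDs of these neighbours in the order overlapped. Both genes were measured in the same 4 controls, and their order was not tested within libraries. In CPM, IFIT3 had 303.9, 324.4, 323.8 and 277.1 with miR-101 and 351.4, 328.1, 177.6 and 74.8 in controls. The 4 miR-101 values lay within 1.17-fold of each other and the controls within 4.69-fold, with controls 1 and 2 above and controls 3 and 4 below all of them.

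IFIT2 had 332.1, 345.3, 343.9 and 282.1 CPM with miR-101 and 393.4, 371.3, 188.2 and 91.5 CPM in controls, the same order of libraries. IFIT1 had 198.8, 213.0, 195.7 and 176.9 CPM with miR-101 and 278.3, 261.6, 138.2 and 60.8 CPM in controls. All 3 were thus lower with miR-101 in cultures 1 and 2 and higher in cultures 3 and 4. The log2 fold changes were 0.40 ± 0.366 for IFIT3, 0.32 ± 0.356 for IFIT2 and 0.09 ± 0.362 for IFIT1 (SE, edgeR adjusted p = 0.562, 0.643 and 0.919). IFIT5, with 60.3 to 79.4 CPM with miR-101 and 43.7 to 67.6 CPM in controls, was higher with miR-101 in all 4 cultures (0.28 ± 0.145 SE, edgeR adjusted p = 0.279).

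ISG15, the ubiquitin-like modifier, had 95.9, 105.2, 96.2 and 76.8 CPM with miR-101 and 167.8, 161.5, 83.0 and 66.8 CPM in controls. Controls 1 and 2 lay above all miR-101 libraries, and control 4 lay below them. Its log2 fold change was -0.36 ± 0.269 (SE, edgeR adjusted p = 0.471), with log2 ratios of -0.81, -0.62, 0.21 and 0.20 in cultures 1 to 4. Genes that attach or remove ISG15 did not share this sign: HERC5, the ligase, had 0.25 ± 0.339 (SE), UBE2L6, the conjugating enzyme, 0.24 ± 0.349 (SE), and USP18, the protease that also restrains the interferon receptor, 0.33 ± 0.194 (SE). HERC6 and TRIM25, the ubiquitin ligase that acts on RIG-I, had 0.09 and 0.06, and none of these was called.

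Among the other effectors, MX1 had 12.5, 17.1, 7.93 and 6.55 CPM with miR-101 and 10.4, 11.3, 2.98 and 2.29 CPM in controls. It was higher with miR-101 in all 4 cultures, and in both groups libraries 1 and 2 exceeded 3 and 4. The unblocked log2 fold change was 0.71 ± 0.489 (SE, edgeR adjusted p = 0.428).

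BST2 encodes tetherin, which holds budding virions at the cell surface. It had 2.04, 2.15, 1.81 and 2.0 CPM with miR-101 and 1.98, 2.19, 0.372 and 0.191 CPM in controls. Controls 1 and 2 were level with the miR-101 libraries, while controls 3 and 4 lay far below them (log2 fold change 0.75 ± 0.54 SE, edgeR adjusted p = 0.448). These are few reads: culture 4 had 37 against 4 and culture 3 had 37 against 6. The ratios, scaled for library size, were 10.5 (95% exact interval 3.77 to 40.5) and 4.86 (2.04 to 14.1), and the intervals cover counting error only. IFI44L, in culture 4, had 25 reads against 3 (ratio 9.44, 95% exact interval 2.88 to 48.9).

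Of the remaining effectors, PARP14 had 232.3, 229.5, 181.7 and 130.3 CPM with miR-101 and 188.1, 198.2, 108.6 and 72.6 CPM in controls, higher with miR-101 in every culture. CMPK2, a nucleotide kinase that neighbours RSAD2, was also higher in all 4 cultures (0.60 ± 0.353 SE, edgeR adjusted p = 0.348). RSAD2, which encodes viperin, had -0.29 ± 0.583 (SE, edgeR adjusted p = 0.815), with 2.06 CPM in control 4 and 24.0 CPM in control 1. The exons of CMPK2 and RSAD2 overlap on opposite strands and the strand setting of the counts is not given in the sources used here, so the values of both are uncertain. IFI6, IFI35, IFI44 and PARP9 had log2 fold changes between -0.22 and 0.33, and none was called.

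The chemokine CXCL10, which attracts T cells, had the largest fold change of the 41. It had 4.35, 2.75, 1.81 and 2.76 CPM with miR-101 and 1.87, 1.83, 0.683 and 0.0478 CPM in controls. It was higher with miR-101 in all 4 cultures, and only miR-101 3 lay within the control range. The log2 fold change was 1.40 ± 0.578 (SE, edgeR adjusted p = 0.183). Control 4 held 1 read against 51 in miR-101 4, a ratio of 57.8 with a 95% exact interval of 9.92 to 2327.

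Exons of other annotated genes also overlap those of IRF1, IRF3, IRF9, OAS1, EIF2AK2, IFIT2, ISG15, MX1, PARP9, SAMHD1, SP100 and TRIM25, whose values are uncertain to that extent. The IFIT genes are related in sequence and neighbour each other on chromosome 10, and how reads shared between related genes were counted is not given in the sources used here.

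Matches to the whole seed of the microRNA were less frequent in the set than over all genes, and shorter matches were about as frequent; neither difference was tested. The mature strand (RefSeq) is shown with its seed, bases 2 to 8, in capitals, followed by the 2 members' sites with the strongest class of match and the site in JAK2, described below, with the bases that pair with the seed in capitals.
hsa-miR-101-3p: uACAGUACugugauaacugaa
MAVS: gatcagttatGTACTGTttataataag
ADAR: atagactcggGTACTGTgatgatggct
JAK2: gtagttccatGTACTGTAaatatttttc
The sites were found in the longest annotated 3′ UTR of each gene (GENCODE, GRCh38), at chr20:3873024-3873030 on the plus strand for MAVS, chr1:154582174-154582180 on the minus strand for ADAR and chr9:5127400-5127407 on the plus strand for JAK2. The JAK2 site has an A after the pairing bases, included in the capitals.

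A match to the whole seed, with or without that A, was present in 2 of the 41 members (4.88%), against 12.8% of the 12185 tested genes with an annotated 3′ UTR. ADAR and MAVS carried it, and they had the lowest and the second lowest log2 fold change of the 41 (-0.64 and -0.43). Among the called genes named outside the set, EZH2 (lower) and JAK2, EPSTI1 and TRIM22 (higher) also carried a whole-seed match. A shorter match, to bases 2 to 7 followed by an A, was the strongest in 5 members (12.2%, against 11.1% of all these genes): DDX58, DHX58, OAS2, IFIT1 and TRIM25. Their log2 fold changes lay between 0.06 and 0.59. The remaining 34 members had no match and log2 fold changes between -0.36 and 1.40. Whether the microRNA acts at these sites was not tested.

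Among the members with a promoter sequence, the median spread among controls was larger where the window held the ISRE word. The 18 members with it had a median ratio of highest to lowest control of 3.61, and control 4 was lowest in 17 of them. The 16 members without it had a median of 2.51, with control 4 lowest in 9. The 2 ranges overlapped, at 1.12 to 39.1 and 1.09 to 11.7, and the difference was not tested. No promoter entry was matched for DHX58, IRF3, PML, OAS2, OASL, IFIT2 and USP18, and the median ratio of these 7 was 3.43.

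Genes that surround the set in the pathway were read from fixed lists, whose counts stand beside 3.3% of all tested genes called higher and 3.32% called lower, or 5.55% and 4.99% with the culture number as a block. None of 9 interferon ligand genes, IFNB1 included, was analysed here. Of 8 tested receptor and Janus kinase genes 3 were called higher and 0 lower. JAK2, the kinase of the interferon gamma and several cytokine receptors, rose from 32.8 ± 4.28 to 75.6 ± 1.79 CPM (SD, n = 4; log2 fold change 1.2, edgeR adjusted p = 0.000542), and its groups did not overlap. IFNAR2, a chain of the type I interferon receptor, rose by a log2 fold change of 0.57 (edgeR adjusted p = 0.0175), and IFNGR1, a chain of the interferon gamma receptor, by 0.50 (edgeR adjusted p = 0.0351).

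Of 10 tested STATs and negative regulators 3 were called higher and 0 lower. SOCS3 and SOCS1, feedback inhibitors of Janus kinases, had log2 fold changes of 1.21 and 1.72 (edgeR adjusted p = 0.0191 and 0.0192), and STAT3 had 0.71 (edgeR adjusted p = 0.025). SOCS1 was scarce, at 1.08 to 1.61 CPM with miR-101 and 0.124 to 0.659 CPM in controls.

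Among 16 tested genes of nucleic acid sensing and relay 1 was called higher and 1 lower. TLR3, the endosomal sensor of double-stranded RNA, rose by a log2 fold change of 0.98 (edgeR adjusted p = 0.0287), while its adaptor TICAM1 had -1.02 (edgeR adjusted p = 0.0494) at 0.325 to 0.538 CPM with miR-101 and 0.731 to 1.05 CPM in controls. The TICAM1 call was lost with the culture number as a block (edgeR adjusted p = 0.0668). Of 11 double-stranded RNA binding proteins that interferon does not induce 1 was called lower, STAU1, at -0.51 (edgeR adjusted p = 0.0287). PRKRA, which encodes the PKR activator PACT and overlaps exons of other annotated genes, also had -0.51 (edgeR adjusted p = 0.0503), and with the block 2 were called lower, STAU1 and PRKRA (edgeR adjusted p = 0.041 and 0.0248). DESeq2 called 3 lower, STAU2 included, where it called 5.47% of all tested genes lower. Of 10 targets of the integrated stress response, which PKR can start, 0 were called by edgeR, DESeq2 or limma-voom. At an unadjusted p under 0.05 edgeR gave 1 of the 10 higher, against 1808 of all 15905 tested genes. With the block edgeR called 1 of the 10 higher, ATF4, the central transcription factor of that response (edgeR adjusted p = 0.0457). With replicates 1 and 2 alone edgeR called 3 higher and 1 lower, where 16.0% and 16.4% of all tested genes were called.

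A further list of 48 interferon-stimulated genes, 41 of them tested, gave 4 called higher and 0 lower, with a median log2 fold change of 0.27. They were LAMP3, a lysosomal membrane protein (1.72, edgeR adjusted p = 0.0036), GBP1, an interferon gamma induced GTPase (1.62, edgeR adjusted p = 0.00452), EPSTI1 (1.51, edgeR adjusted p = 0.0212) and TRIM22, a ubiquitin ligase (1.44, edgeR adjusted p = 0.0465). With the culture number as a block, 8 of the 41 were called higher. LAMP3 had 2.59 to 3.74 CPM with miR-101 and 0.669 to 1.32 CPM in controls, and GBP1 had 2.5 to 3.74 CPM and 0.807 to 1.57 CPM, so the groups of both lay apart. In this list too control 4 was most often lowest, in 25 of 41 (61.0%), and controls 1 and 2 both lay above controls 3 and 4 in 34 of 41 (82.9%). The division by culture was less common than in the set. A level lower with miR-101 in cultures 1 and 2 and higher in 3 and 4 was found in 4 of 41 (9.76%, against 2.46% of all genes). The level was higher with miR-101 in all 4 cultures for 19 of 41 (46.3%, against 18.1%). The groups lay apart, higher with miR-101, for 8 of 41 (19.5%, against 7.76%).

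Of the called genes outside the set, JAK2, LAMP3 and GBP1 kept their calls whichever of the 8 libraries was left out. IFNAR2, IFNGR1, SOCS1, SOCS3, STAT3, TLR3, STAU1, EPSTI1 and TRIM22 each lost the call without at least miR-101 1 and without miR-101 2, with adjusted p up to 0.134, and TICAM1 lost it in all 8 fits. IFNAR2 and TRIM22 share exon sequence with other annotated genes, and their values are uncertain to that extent.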

How the data were processed

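Per the labels, 8 cultures were sequenced after removal of ribosomal RNA. The authors deposited raw counts of reads for each gene symbol. Per the submitters' processing notes, StringTie 1.2.4, TopHat2 2.0.14, the hg38 build and bcl2fastq 2.18.0.12 were used. How reads were counted, and whether by strand, is not given in the sources used here. The members and lists were chosen with earlier results of these data known.

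Counts were tested with edgeR 4.0.16 (R 4.3.3, limma 3.58.1): filterByExpr, TMM, glmQLFit without robust estimation and glmQLFTest, group as the only term, Benjamini-Hochberg adjustment over 15905 genes, tested on simulated data first. An SE is the log2 fold change divided by the square root of the F statistic. Alternatives were DESeq2 1.42.0, limma-voom, other scalings, no filter, leaving out each library, replicates 1 and 2 or 3 and 4 alone or 1 and 2 summed, and the culture number as a block. Same-numbered libraries deviated together from their group means (correlations 0.379, 0.526, 0.204 and 0.203, all over 0.1), so the numbers were taken to pair the libraries. They do not single out pairs: miR-101 1 with control 2 gave 0.457, miR-101 2 with control 1 gave 0.442 and miR-101 4 with control 3 gave 0.44. Depth was 17603054 to 20160267 counts. Per-kilobase levels use merged exon length. By a fixed rule, per-library values were given for chosen members of each role (PARP14 was added after its values were seen), and called genes of each other list were named. A gene that the rule named is not reported here.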

Additional observations from a re-analysis of the deposited data

Results flagged for a closer look

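Each member's 4 libraries of a group were screened for 1 library far from the other 3, in 82 groups in all. Chance flags about 1 in 20 groups, and 2 were found. IRF3 had 42.3 CPM in miR-101 2, above 35.6 to 36.5 CPM in the other miR-101 libraries. PML had 8.4 CPM in miR-101 4, below 10.1 to 10.5 CPM in the other miR-101 libraries. Neither gene was called, and the cause of either value was not tested. Controls 3 and 4, which were low for most members, were not singled out by this screen.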

How the results depend on the processing

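The count of members called higher was 0, and became 3 with the replicate block and 6 with replicates 1 and 2 alone. The count called lower was 0, and became 2 without control 3 (range 0 to 2 over the 8 fits that each left out 1 library) and 13 with replicates 1 and 2 alone. Over all genes, 525 were called higher and 528 lower. DESeq2 called 840 and 874, the replicate block 883 and 793, replicates 1 and 2 alone 2534 and 2592, replicates 3 and 4 alone 6 and 0, and replicates 1 and 2 summed 106 and 67. Leaving out 1 library gave 258 to 670 higher and 227 to 749 lower.

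Of the 41 members, 7 changed sign without control 4, 2 without control 3, 12 with replicates 1 and 2 alone, all to negative, and 7 with replicates 3 and 4 alone, all to positive. Leaving out any other library turned 1 to 5 members, limma-voom and the replicate block 4 each, replicates 1 and 2 summed 3, and library sizes alone 1. Among the 19 members of the naming rule, without control 4, IFIH1 was -0.12, DDX58 -0.19 and IFIT1 -0.21. Without control 3, IRF1 was -0.02 and IFIT1 -0.04. With replicates 1 and 2 alone, IFIH1 was -0.16, DDX58 -0.34, IFIT1 -0.40, IFIT2 -0.18, IFIT3 -0.12 and BST2 -0.000605. With replicates 3 and 4 alone, ISG15 was 0.21. Over the fits that each left out 1 library, the log2 fold change ranged from -0.12 to 0.45 in IFIH1, -0.19 to 0.31 in DDX58, -0.02 to 0.27 in IRF1 and -0.21 to 0.35 in IFIT1. The causes were not tested. The naming rule took 34 genes, 19 members and 15 others. All 34 kept direction and call without the filter, with DESeq2 size factors in edgeR and with limma-voom, and 33 with DESeq2, where TICAM1 lost its call (adjusted p = 0.114). With library sizes alone 29 did, with 5 calls lost, and with replicates 1 and 2 summed 23 did, with 11 calls lost. With the replicate block 31 did: OAS1 and MX1 gained a call and TICAM1 lost one.

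At 17603054 to 20160267 counts per library, genes under about 1 CPM rest on few reads (CXCL10 on 1 read in control 4). With 4 libraries a group and a median biological coefficient of variation of 30.4% in the members against 16.5% over all genes, an uncalled member is not shown to be equal between groups.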
